A study of Saccharomyces cerevisiae with 15 samples.

Results

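This report describes 10 yeast genes of nitrogen catabolite regulation and ammonium assimilation: GAP1, MEP1, MEP2, MEP3, DAL80, GAT1, GLN1, GDH1, GDH2 and GDH3. They were chosen by their gene symbol, out of 5980 genes in the deposited expression table, and read counts were followed across 5 strains. All 10 passed the filter on low counts, which left 5814 genes tested.

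Yeast cells that have a preferred nitrogen source, such as ammonium or glutamine, keep the genes for taking up and breaking down poorer sources at a low level, which is called nitrogen catabolite repression. The GATA factors Gln3 and Gat1 activate these genes, Dal80 and Gzf3 repress them through the same GATA sequences, and Ure2 holds Gln3 back in the cytoplasm. Gap1 is the general amino acid permease, and Mep1, Mep2 and Mep3 carry ammonium across the plasma membrane. Inside the cell, the NADP-dependent glutamate dehydrogenases Gdh1 and Gdh3 join ammonium to 2-oxoglutarate, glutamine synthetase Gln1 joins it to glutamate, and the NAD-dependent enzyme Gdh2 releases it again from glutamate.

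The 5 strains are of the S288C background, are labelled his3Δ1, leu2Δ0, met15Δ0 and ura3Δ0, and express the nuclease spCas9-NG, with 3 RNA sequencing libraries each. BY47419 is the starting strain, and C0 is the first β-carotene strain, which also overexpresses HMG1, CrtE, CrtYB and CrtI. The intermediate evolved strains C3-06 and C5-63 and the final evolved strain C7-143 carry the same labels as C0. Cultures were kept in YPD, a rich medium with 20 g/L of glucose, at 30 °C and were harvested at an optical density of about 3. Neither the promoters of the added genes nor the mutations of the evolved strains were known here, and each stage of the evolution is represented by the strains named above. Whether replicate libraries stem from independent cultures is not stated, so the p-values describe the spread among these libraries, part of which could be technical.

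Library totals lay between 16144808 and 21586409 counts. Reads of URA3 numbered 0 or 1 in every library, whereas LEU2, labelled as deleted throughout, had 140 to 340 CPM (counts scaled to a common library total) in the libraries of BY47419, C0, C5-63 and C7-143 and 0 reads in C3-06. HIS3 had reads in every library. No values were found under the symbol MET15, so that label was not checked. HMG1 had 1845 to 2016 CPM in C0, against 62.6 to 74.6 in BY47419. In the evolved strains it was lower than in C0, at 1012 to 1167 CPM in C3-06, 492 to 777 in C5-63 and 515 to 683 in C7-143. Markers of a cells were read in every library and held 0.109% of counts in C7-143 and 0.0405% in BY47419 on average, beside 0.00837% and 0.00635% for markers of alpha cells. BY47419 replicate 2 and C3-06 replicate 1 stood apart from the other libraries of their strain: the chi-square per degree of freedom over genes was 110 and 60.8 between that BY47419 library and the other 2, against 15.04 between those 2, and 103 and 74.0 for that C3-06 library, against 13.5. Results that turn on them are given with and without them.

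The upstream sequences are shown because GATA factors read the letters GATAAG, which 9 of the 10 genes carry. GATAAG was counted on both strands (CTTATC when it lies on the other strand) in the 600 bases before each start codon, in the R64 reference genome from RefSeq. MEP2 held 7 matches, GAP1 and MEP3 held 5 each, GAT1 held 4, DAL80, GDH1 and GDH3 held 3 each, MEP1 held 2 and GLN1 held 1. GDH2 held 0 matches, which says only that these letters are not in its window. Of the 5977 windows searched in the whole genome, 26.8% held at least 1 match and 0.703% held at least 3, against 9 and 7 of these 10 genes. Because the 10 were chosen as genes of nitrogen catabolite regulation and ammonium assimilation, this contrast is a description and was not tested. The shorter GATAA, which every GATAAG contains, was found in 9 of the 10 and in 84.0% of all windows. Overlapping matches that share bases were counted separately. A match is a description of the sequence, not of binding, and transcription starts were not used. In the 150-base stretches below, 5′ to 3′ on the gene's own strand, GATAAG and CTTATC are in capitals.
GAP1 (chrXI:514698-514847, + strand, bases 365 to 216 before the start codon): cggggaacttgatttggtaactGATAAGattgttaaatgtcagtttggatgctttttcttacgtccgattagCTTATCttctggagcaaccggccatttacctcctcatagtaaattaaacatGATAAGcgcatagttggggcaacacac
MEP2 (chrXIV:356986-357135, + strand, bases 467 to 318 before the start codon): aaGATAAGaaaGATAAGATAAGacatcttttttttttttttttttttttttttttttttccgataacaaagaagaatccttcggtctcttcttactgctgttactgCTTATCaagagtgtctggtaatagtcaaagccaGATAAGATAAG
DAL80 (chrXI:506559-506708, + strand, bases 339 to 190 before the start codon): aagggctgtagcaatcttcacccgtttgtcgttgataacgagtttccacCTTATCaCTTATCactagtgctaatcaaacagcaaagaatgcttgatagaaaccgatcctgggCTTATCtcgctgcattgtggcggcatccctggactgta
GAT1 (chrVI:95666-95815, + strand, bases 300 to 151 before the start codon): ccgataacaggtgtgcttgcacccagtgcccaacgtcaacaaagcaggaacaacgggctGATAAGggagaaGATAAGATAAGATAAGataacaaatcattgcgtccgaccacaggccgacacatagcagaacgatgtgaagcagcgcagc
GDH3 (chrI:31229-31378, + strand, bases 338 to 189 before the start codon): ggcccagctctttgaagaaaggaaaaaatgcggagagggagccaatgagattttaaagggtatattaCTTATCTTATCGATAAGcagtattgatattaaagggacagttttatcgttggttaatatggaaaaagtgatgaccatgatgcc
In MEP2 and GAT1 some of the matches stand in tandem and overlap. In GDH3, overlapping CTTATC matches are directly followed by a GATAAG match in the opposite orientation. The stretches shown for MEP2 and DAL80 also overlap a neighbouring annotated gene, YNL143C and YKR032W.

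From here on, CPM are given after TMM scaling, which adjusts library sizes for differences in composition. Differences were tested with edgeR's quasi-likelihood test on all 15 libraries and called at a Benjamini-Hochberg adjusted p below 0.05 over the 5814 genes. Log2 fold changes are given with their standard error (SE). Levels of different genes are compared only per kilobase of coding sequence. Per kilobase, GLN1 had the highest mean of the 10 genes in every strain and DAL80 the lowest. GDH3 was second in BY47419 at 1444 ± 701 CPM per kilobase and in C0 at 606 ± 86.7 (SD, n = 3), and it was seventh in C7-143 at 45.5 ± 4.50. GDH1 was second in C3-06, C5-63 and C7-143.

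**Figure D1:**
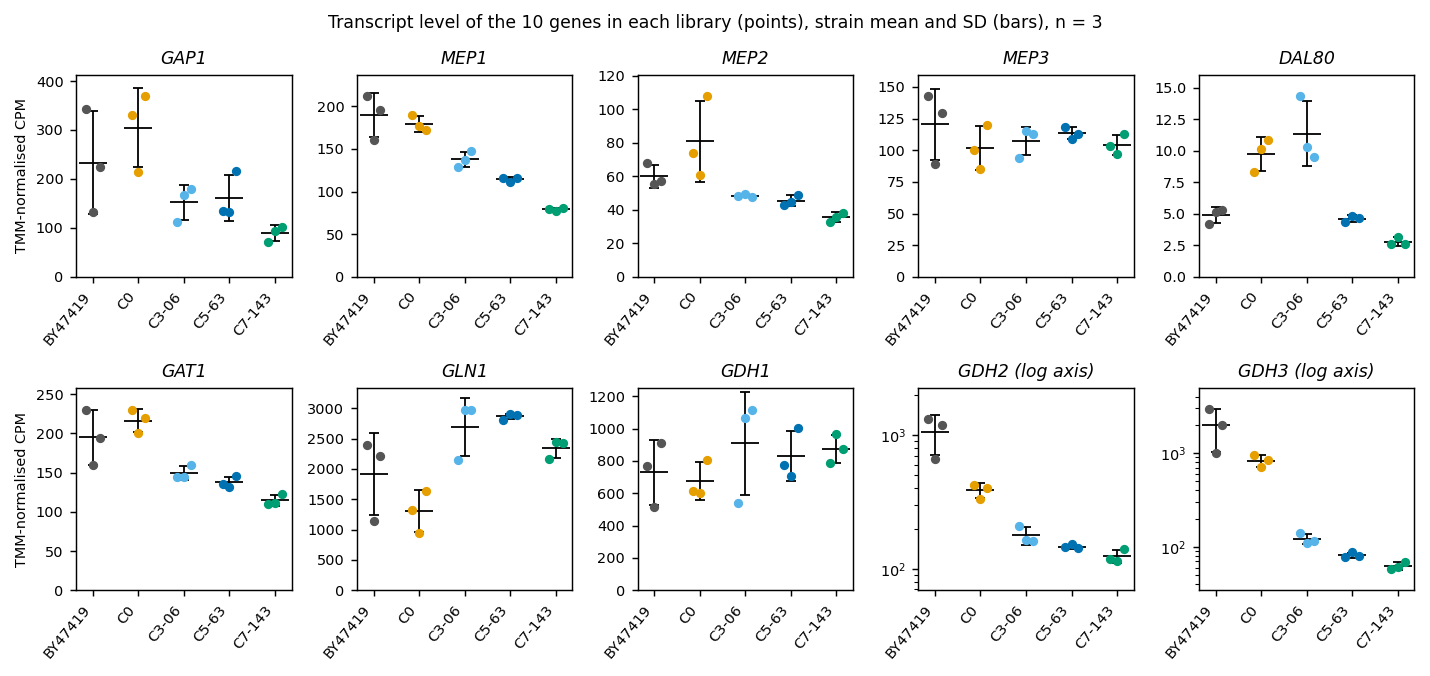
TMM-normalised CPM of the 10 genes in each of the 15 libraries (points), by strain, with the strain mean and SD (n = 3). GDH2 and GDH3 have a log axis, the other genes a linear axis from 0. GDH3 lies between 57.4 and 69.4 in C7-143 and between 1005 and 2930 in BY47419, and the MEP3 libraries of all strains overlap.

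Between C7-143 and C0, 7 of the 10 genes fell (GDH3, GDH2, DAL80, GAP1, MEP1, MEP2 and GAT1), GLN1 rose, and GDH1 and MEP3 were not called. Of all genes tested, 43.3% were called lower and 42.7% higher in that comparison, 86.0% in all, so a count of 8 of 10 called is near the background. Between C5-63 and C0 the same 7 genes were lower and GLN1 higher, with 41.8% of all genes called lower, 41.4% higher and 83.1% in all. Between C3-06 and C0, 6 of these genes were lower and GLN1 higher, with 39.4% of all genes called lower, 41.1% higher and 80.5% in all, and DAL80 was not called. The libraries of the strains were fully separated for 8 genes in C7-143 against C0, and for 7 each in C5-63 and C3-06 against C0, beside 87.3%, 85.2% and 81.4% of all genes. The median log2 fold change of the 10 genes was −1.18 in C7-143 against C0, −0.74 in C5-63 against C0 and −0.46 in C3-06 against C0, beside medians of −0.015, −0.0046 and 0.021 over all genes tested. With library totals alone as the scale, 3 of the 10 genes were called higher and 5 lower in C3-06 against C0. In C5-63 against C0, 3 were then higher and 6 lower. Of all 5814 genes, that scale called 2820 higher and 1702 lower in C3-06 against C0. It called 3035 higher and 1684 lower in C5-63 against C0. These comparisons share the C0 libraries.

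Fewer genes were called between the other pairs of strains, both among the 10 and among all genes tested. In C0 against BY47419, DAL80 and MEP2 were higher and GDH2 and GDH3 lower, with 12.2% of all genes called higher, 18.0% lower and 30.3% in all. In C5-63 against C3-06, MEP1 and DAL80 were lower and 0 genes higher, with 21.0% of all genes called lower, 19.8% higher and 40.8% in all. In C7-143 against C5-63, MEP1, DAL80, GAP1 and GAT1 were lower and 0 genes higher, with 23.9% of all genes called lower, 25.0% higher and 48.8% in all. The libraries were fully separated for 3, 4 and 8 of the 10 genes in these comparisons, beside 40.9%, 57.1% and 62.0% of all genes. The corresponding medians of the 10 genes were −0.096, −0.13 and −0.32, beside −0.020, −0.0052 and −0.0093 over all genes. In a joint test of any difference among the 5 strains, 8 of the 10 genes were called, with 96.0% of all genes. The others were GDH1 (adjusted p = 0.407) and MEP3 (adjusted p = 0.503).

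The strains also differed in markers of growth state, which move in the same order as several of these genes. The 132 ribosomal protein genes held 0.390% of the counts in BY47419, 0.451% in C0, 2.54% in C3-06, 3.42% in C5-63 and 5.03% in C7-143 on average. The 20 genes of the stress list held 8.11%, 7.01%, 2.81%, 1.48% and 0.855% in the same order. Their part in the results was not tested. In these bulk cultures, fewer cells in a given state and less RNA per cell cannot be told apart.

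**Figure D2:**
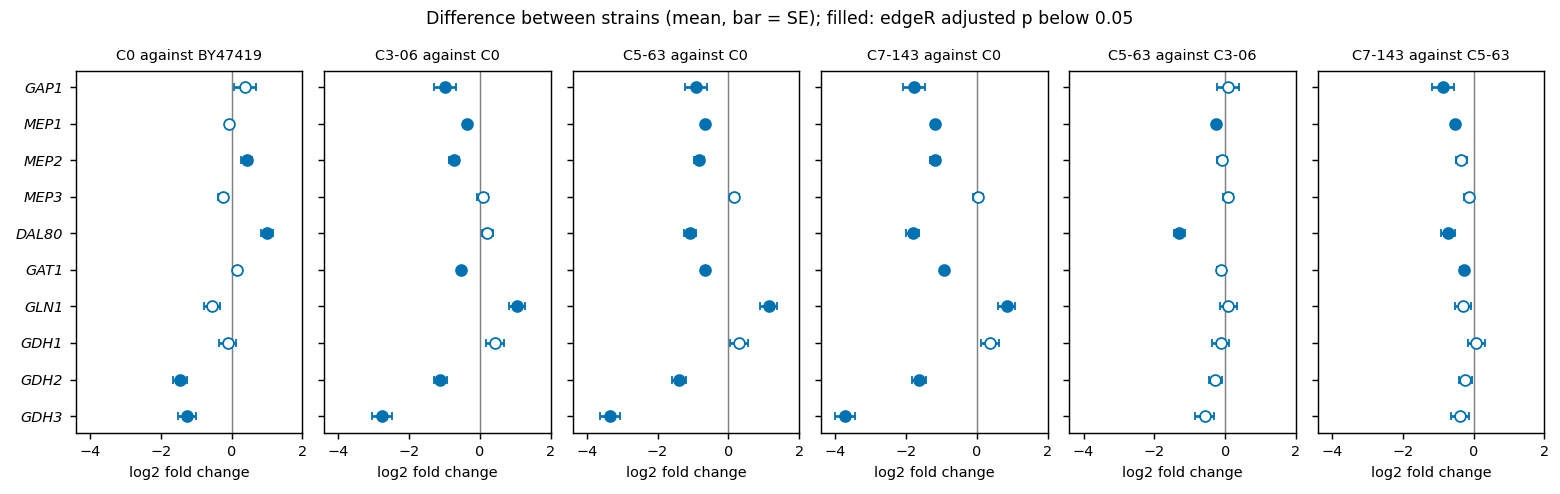
Log2 fold change with its SE for each of the 10 genes in the 6 comparisons, the first-named strain over the second, from the fit of all 15 libraries. GDH3 reaches −3.74 in C7-143 against C0, GLN1 lies above 0 in the comparisons of evolved strains with C0, and MEP3 stays within 0.24 of 0 throughout.

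GAP1, the general amino acid permease and a classical target of nitrogen catabolite repression, was lowest in C7-143. Its gene YKR039W lies at chrXI:515063-516871 on the + strand. GAP1 had 342, 132.5 and 224 CPM in the 3 BY47419 libraries (replicates 1, 2 and 3), 331, 215 and 369 in C0, 112, 166 and 179 in C3-06, 135, 132 and 215 in C5-63 and 71.3, 93.0 and 103 in C7-143. All C7-143 libraries lay below all others, whereas those of C5-63 overlapped those of C0 in 1 library each. The libraries of C0 and BY47419 also overlapped, and these strains were not called different (0.39 ± 0.31, SE, adjusted p = 0.363). GAP1 was lower in C7-143 than in C0 by a log2 fold change of −1.78 ± 0.32 (SE, adjusted p = 0.000106). It was lower in C7-143 than in C5-63 by −0.85 ± 0.31 (adjusted p = 0.0363). Against C0 it was lower in C3-06 (−0.999 ± 0.31, adjusted p = 0.00866) and in C5-63 (−0.92 ± 0.31, adjusted p = 0.0132). The smaller of these calls were lost without single libraries, and that of C5-63 against C0 also with library totals as the scale (−0.61, adjusted p = 0.0718). Without C3-06 replicate 1, C3-06 against C0 gave −0.82 (adjusted p = 0.0660), and without C5-63 replicate 1 or 2, C5-63 against C0 gave −0.81 and −0.80 (adjusted p = 0.0513 and 0.0534). Without C5-63 replicate 3, C7-143 replicate 1 or C7-143 replicate 2, C7-143 against C5-63 gave adjusted p of 0.163, 0.119 and 0.0750.

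The ammonium permeases diverged: MEP1 fell at each step from C0 onwards, MEP2 fell below C0 in the evolved strains, and MEP3 was not called in any comparison. MEP1 (YGR121C, chrVII:731449-732927, − strand) had 212, 161 and 196 CPM in BY47419, 190.0, 176 and 172 in C0, 129, 138 and 147 in C3-06, 116, 111 and 116 in C5-63 and 79.1, 77.4 and 80.7 in C7-143. From C0 on, no library of a later strain reached any library of the strain before it. MEP1 was lower in C7-143 than in C0 by −1.18 ± 0.09 on the log2 scale (adjusted p = 1.17e-09) and lower in C5-63 than in C0 by −0.65 ± 0.08 (adjusted p = 2.14e-06). It was lower in C7-143 than in C5-63 by −0.53 ± 0.08 (adjusted p = 0.000117) and lower in C3-06 than in C0 by −0.38 ± 0.08 (adjusted p = 0.000586). In C0 against BY47419 MEP1 was not called (−0.08 ± 0.08, adjusted p = 0.506), but was without BY47419 replicate 2 (−0.18, adjusted p = 0.0429). In C5-63 against C3-06 the difference was −0.27 ± 0.08 (adjusted p = 0.0176), and the adjusted p was 0.0782, 0.0564 and 0.0516 without C3-06 replicate 3, C5-63 replicate 2 and C5-63 replicate 3. With library totals alone as the scale, MEP1 was no longer called in C3-06 against C0 (−0.17, adjusted p = 0.0779) or in C5-63 against C3-06 (−0.17, adjusted p = 0.134).

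MEP2, the permease with the highest affinity for ammonium and a sensor in filamentous growth, lies at chrXIV:357453-358952 (YNL142W, + strand). It had 67.8, 55.2 and 57.3 CPM in BY47419, 74.0, 60.7 and 108 in C0, 48.0, 49.5 and 47.9 in C3-06, 43.1, 44.5 and 49.0 in C5-63 and 32.7, 36.0 and 38.3 in C7-143. The evolved strains lay below every BY47419 and C0 library, and C7-143 lay below the other evolved strains. MEP2 was lower than in C0 by −1.18 ± 0.15 in C7-143 (adjusted p = 2.15e-06), by −0.83 ± 0.15 in C5-63 (adjusted p = 9.06e-05) and by −0.74 ± 0.15 in C3-06 (adjusted p = 0.000301). In C7-143 against C5-63 it was not called (−0.35 ± 0.15, adjusted p = 0.0700), but was with only these strains in the fit (−0.36, adjusted p = 0.00410) and with library totals (−0.52, adjusted p = 0.0184). In C0 against BY47419 it was called higher at 0.43 ± 0.15 (adjusted p = 0.0418), but the libraries of C0 and BY47419 overlapped. That call was lost without C0 replicate 3 (0.17, adjusted p = 0.279), without BY47419 replicate 2 or 3 (adjusted p = 0.0975 and 0.124), with limma-voom (adjusted p = 0.0644) and with only the 2 strains in the fit (adjusted p = 0.157). MEP3 (YPR138C, chrXVI:810984-812453, − strand), a permease of lower affinity, had strain means of 120 ± 28.0 CPM in BY47419, 102 ± 17.3 in C0, 107 ± 11.3 in C3-06, 113 ± 4.71 in C5-63 and 104 ± 7.97 in C7-143 (SD, n = 3), a range of 1.18-fold. Without BY47419 replicate 2, MEP3 was called lower in C0 than in BY47419 (−0.42, adjusted p = 0.0127), and with library totals it was called higher in C5-63 than in C0 (0.46, adjusted p = 0.0116).

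The balance of the permeases can be read within each library, where scaling plays no part. MEP1 made up 51.4% ± 1.33 of the MEP reads per kilobase in BY47419, 50.0% ± 6.14 in C0, 47.0% ± 1.26 in C3-06, 41.9% ± 0.163 in C5-63 and 36.1% ± 1.14 in C7-143 (SD, n = 3). The MEP3 share was 32.5% ± 2.71, 28.2% ± 1.85, 36.7% ± 1.69, 41.7% ± 1.06 and 47.8% ± 1.35 in the same order. MEP1 was thus the most abundant permease transcript per kilobase in BY47419, C0 and C3-06, MEP1 and MEP3 were level in C5-63, and MEP3 was the most abundant in C7-143. The ratio of MEP2 to the sum of MEP1 and MEP3 was 0.275 in C0, against 0.192 in BY47419, and 0.195 in C3-06, 0.196 in C5-63 and 0.191 in C7-143, against the same value in C0 (geometric means). The C0 libraries did not overlap those of any of these strains, and an exact two-sided permutation test gave p = 0.1 in each of these 4 comparisons, the smallest p that 3 against 3 libraries allow. MEP1 and MEP3 share 71.2% of their aligned coding bases, with a longest identical run of 20 bases, so a small part of their reads may be hard to assign. Read length and the treatment of reads with several matches were not known here.

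DAL80, the GATA repressor whose own gene is under nitrogen catabolite repression, was read at a low level and was highest in C3-06 and C0. Its gene (YKR034W) lies at chrXI:506898-507707 on the + strand. It had 58, 90 and 79 reads in BY47419, 123, 170 and 191 in C0, 294, 237 and 207 in C3-06, 99, 108 and 121 in C5-63 and 52, 65 and 50 in C7-143. As CPM these were 4.19, 5.18 and 5.34 in BY47419, 8.28, 10.2 and 10.9 in C0, 14.3, 10.3 and 9.51 in C3-06, 4.33, 4.84 and 4.68 in C5-63 and 2.603, 3.19 and 2.58 in C7-143. All C0 and C3-06 libraries lay above those of the other 3 strains. DAL80 was higher in C0 than in BY47419 by 0.99 ± 0.18 on the log2 scale (adjusted p = 0.00115). It was lower in C5-63 than in C3-06 by −1.30 ± 0.16 (adjusted p = 3.38e-05), lower in C7-143 than in C5-63 by −0.72 ± 0.19 (adjusted p = 0.00550) and lower than in C0 by −1.81 ± 0.18 in C7-143 (adjusted p = 8.89e-08) and by −1.09 ± 0.17 in C5-63 (adjusted p = 1.63e-05). In C3-06 against C0 the difference was 0.21 ± 0.16 (adjusted p = 0.225). With library totals as the scale it was called there (0.40, adjusted p = 0.0267).

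GAT1, the activating GATA factor, showed a smaller spread, with a 1.89-fold range of strain means. The gene (YFL021W) lies at chrVI:95966-97498 on the + strand. It had 230.3, 160.2 and 194 CPM in BY47419, 229, 200.3 and 219 in C0, 144, 145 and 160.0 in C3-06, 136, 132 and 145 in C5-63 and 110, 111 and 123 in C7-143. The evolved libraries all lay below those of C0, and those of C3-06 and C5-63 overlapped. GAT1 was lower than in C0 by −0.92 ± 0.10 in C7-143 (adjusted p = 3.46e-07), by −0.65 ± 0.10 in C5-63 (adjusted p = 2.03e-05) and by −0.53 ± 0.10 in C3-06 (adjusted p = 0.000175). In C7-143 against C5-63 it was −0.27 ± 0.10 (adjusted p = 0.0416), and leaving out any of C5-63 replicates 1, 2 and 3 or C7-143 replicates 1 and 2 gave adjusted p of 0.0582 to 0.115. In C0 against BY47419 GAT1 was not called (0.15 ± 0.10, adjusted p = 0.278), but was without BY47419 replicate 1 (0.29, adjusted p = 0.0431) and with library totals (0.31, adjusted p = 0.0385). The ratio of DAL80 to GAT1 per kilobase was 0.0479 in BY47419, 0.0851 in C0, 0.142 in C3-06, 0.0634 in C5-63 and 0.0460 in C7-143 (geometric means). C3-06 did not overlap C0 or C5-63 in this ratio, with an exact permutation p = 0.1 each.

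GLN1, glutamine synthetase, was called higher in all 3 evolved strains than in C0. It lies at chrXVI:642208-643320 on the + strand (YPR035W). GLN1 had 2393, 1137 and 2207 CPM in BY47419, 1327, 949.5 and 1634 in C0, 2139, 2979 and 2968 in C3-06, 2813, 2899 and 2887 in C5-63 and 2163, 2437 and 2423 in C7-143. Every evolved library lay above every C0 library, whereas BY47419 spanned a range from within C0 to within the evolved strains. Relative to C0, GLN1 was higher by 1.14 ± 0.23 on the log2 scale in C5-63 (adjusted p = 0.000302), by 1.05 ± 0.23 in C3-06 (adjusted p = 0.000661) and by 0.84 ± 0.23 in C7-143 (adjusted p = 0.00311). Between C0 and BY47419 it was −0.55 ± 0.23 (adjusted p = 0.0844). That comparison turned on single libraries: without BY47419 replicate 2 it was −0.82 (adjusted p = 0.00297), and without C0 replicate 3 it was −0.75 (adjusted p = 0.0480). In C7-143 against C5-63 GLN1 was not called (−0.29 ± 0.23, adjusted p = 0.312), but was with only these strains in the fit (−0.30, adjusted p = 0.0169).

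GDH3 had the widest range of the 10 genes, 31.7-fold between the strain means, with C7-143 lowest and BY47419 highest. It encodes the glutamate dehydrogenase isoform that is known from growth on ethanol and other non-fermentable carbon sources, and it lies at chrI:31567-32940 on the + strand (YAL062W). GDH3 had 2930, 1005 and 2018 CPM in BY47419, 947, 709 and 842 in C0, 141, 110 and 116 in C3-06, 77.4, 87.6 and 79.7 in C5-63 and 57.4, 60.8 and 69.4 in C7-143. The libraries of each strain lay below those of the strain before it, with no overlap. GDH3 was lower in C0 than in BY47419 by −1.25 ± 0.26 on the log2 scale (adjusted p = 0.00313). Relative to C0 it was lower by −2.77 ± 0.27 in C3-06 (adjusted p = 1.80e-07), by −3.35 ± 0.28 in C5-63 (adjusted p = 2.00e-08) and by −3.74 ± 0.29 in C7-143 (adjusted p = 5.22e-09). The steps between evolved strains were not called, at −0.58 ± 0.26 in C5-63 against C3-06 (adjusted p = 0.0844) and −0.38 ± 0.26 in C7-143 against C5-63 (adjusted p = 0.240). With only the 2 strains of a comparison in the fit, both of these were called (adjusted p = 0.00464 and 0.00194), the first also with limma-voom (adjusted p = 0.0434), and C0 against BY47419 was not (−1.22, adjusted p = 0.102).

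GDH2, the enzyme that breaks glutamate down to ammonium and 2-oxoglutarate, followed the same order of strains over a smaller range of 8.50-fold. Its gene (YDL215C) lies at chrIV:70640-73918 on the − strand. GDH2 had 1328, 663 and 1194 CPM in BY47419, 424, 333 and 403 in C0, 210, 164 and 161 in C3-06, 145, 152 and 143 in C5-63 and 118, 115 and 141 in C7-143. Neighbouring strains in this order did not overlap. GDH2 was lower in C0 than in BY47419 by −1.46 ± 0.19 (adjusted p = 0.000211). It was lower than in C0 by −1.12 ± 0.19 in C3-06 (adjusted p = 6.53e-05), by −1.40 ± 0.19 in C5-63 (adjusted p = 5.86e-06) and by −1.63 ± 0.20 in C7-143 (adjusted p = 9.66e-07). Between the evolved strains it was not called, at −0.28 ± 0.19 in C5-63 against C3-06 (adjusted p = 0.257) and −0.23 ± 0.19 in C7-143 against C5-63 (adjusted p = 0.335). With only the 2 strains in the fit, C7-143 against C5-63 was called (−0.24, adjusted p = 0.0219).

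GDH1, the main NADP-dependent glutamate dehydrogenase during growth on glucose, was not called in any of the 6 comparisons. It lies at chrXV:1041678-1043042 on the − strand (YOR375C). Its means were 730 ± 201 CPM in BY47419, 674 ± 117 in C0, 908 ± 318 in C3-06, 829 ± 156 in C5-63 and 875 ± 87.6 in C7-143 (SD, n = 3), a range of 1.35-fold. The spread in C3-06 came from replicate 1, at 542 CPM, against 1065 and 1118 in the other 2 libraries. Without it, GDH1 was called higher in C3-06 than in C0 (0.70, adjusted p = 0.00507), against 0.43 ± 0.25 with it (adjusted p = 0.119). GDH1 was also called higher with library totals as the scale in C3-06 and in C5-63 against C0 (0.65 and 0.61, adjusted p = 0.0317 and 0.0403), and in C7-143 against C0 with only these strains in the fit (0.38, adjusted p = 0.0102).

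Within each library the make-up of the glutamate dehydrogenase transcripts turned over from GDH3 to GDH1. GDH3 made up 61.1% ± 6.81 of the GDH1, GDH2 and GDH3 reads per kilobase in BY47419, 49.8% ± 4.195 in C0, 11.96% ± 5.40 in C3-06, 8.50% ± 1.60 in C5-63 and 6.30% ± 0.636 in C7-143 (SD, n = 3). The GDH1 share was 24.5% ± 5.63, 40.6% ± 4.68, 80.7% ± 8.89, 85.1% ± 2.69 and 88.4% ± 1.36 in the same order, and GDH2 held 14.4%, 9.69%, 7.33%, 6.40% and 5.28%. Per kilobase, GDH1 exceeded GDH3 by a ratio of 7.15 in C3-06, 10.1 in C5-63 and 14.1 in C7-143, against 0.813 in C0, and 0.813 in C0 against 0.395 in BY47419 (geometric means). In each of these 4 comparisons the strains were fully separated, and the exact two-sided permutation test gave its smallest possible p = 0.1 for each. C3-06 replicate 1 had a ratio of 3.87, against 9.70 and 9.73 in the other libraries of that strain. The ratio of GDH1 to GDH2 was 1.68 in BY47419, 4.17 in C0, 11.7 in C3-06, 13.4 in C5-63 and 16.8 in C7-143. GDH1 and GDH3 share 76.7% of 1365 aligned coding bases, with a longest identical run of 35 bases, so some reads may have been assigned to either.

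**Figure D3:**
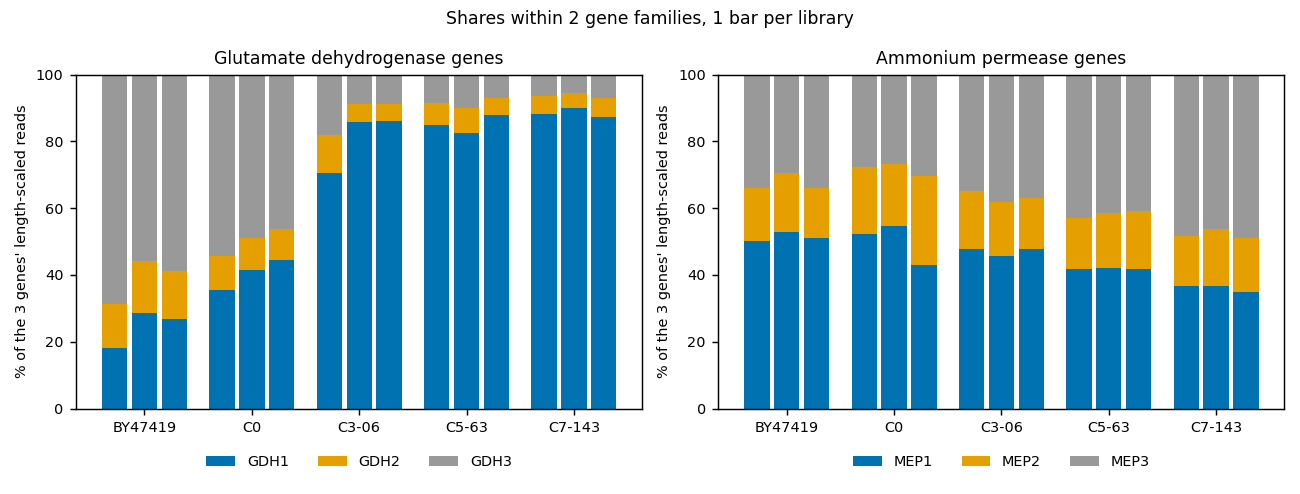
Share of each gene in the reads per kilobase of its family (percent), for the glutamate dehydrogenases (left) and the ammonium permeases (right), with 1 stacked bar for each of the 3 libraries of a strain. On average GDH1 makes up 88.4% in C7-143 and 24.5% in BY47419, and MEP3 makes up 47.8% in C7-143 and 32.5% in BY47419.

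Other genes of nitrogen metabolism were followed in 4 lists. Of 23 genes for transport and breakdown of poor nitrogen sources, 16 fell and 5 rose in C7-143 against C0, beside 43.3% lower and 42.7% higher among all genes (86.0% in all). The number called, 21 of 23, is thus near the background. Their median log2 fold change was −0.74, beside −0.015 over all genes. In C5-63 against C0, 15 fell and 6 rose, beside 41.8% and 41.4% of all genes, and in C3-06 against C0, 13 fell and 4 rose, beside 39.4% and 41.1%. PUT1, proline oxidase, had 21.1 ± 0.618 CPM in C7-143, against 472 ± 175 in C0 (−4.48 ± 0.33 on the log2 scale, adjusted p = 4.90e-09). CAR1, arginase, had 54.3 ± 3.52 CPM in C7-143, against 485 ± 44.1 in C0 (−3.16 ± 0.13, adjusted p = 1.23e-12). DAL7, a malate synthase of the allantoin pathway, and PUT3, the activator of the proline genes, went the other way: DAL7 had 54.1 CPM in C7-143, against 29.1 in C0, and PUT3 had 81.6 CPM, against 39.0 (adjusted p = 1.06e-08 and 2.61e-08). In C0 against BY47419, 6 genes rose and 7 fell, beside 12.2% higher and 18.0% lower among all genes. With library totals 8 rose and 2 fell, beside 1279 higher and 318 lower among all 5814 genes. Without BY47419 replicate 2, 5 rose and 10 fell, beside 976 higher and 1247 lower among 5817 genes. DUR1,2, urea amidolyase, had 200 ± 25.0 CPM in C0, against 72.01 ± 8.31 in BY47419 (1.47 ± 0.16, adjusted p = 2.53e-05). UGA2 fell there without overlap of the libraries, with 225 ± 17.6 CPM in C0, against 322 ± 42.8 in BY47419 (−0.52 ± 0.09, adjusted p = 0.00138). Larger falls were called for PUT4 (−2.39 ± 0.50, adjusted p = 0.00443) and PUT1 (−0.80 ± 0.28, adjusted p = 0.0447), but their libraries overlapped. Each of BY47419 replicates 1 and 3 and C0 replicate 2, when left out, reduced the 13 calls of that comparison to 5. Over all genes, the 1761 calls then fell to 945, 1014 and 1027 in the same order. With only these strains in the fit, 6 of the 23 genes were called, beside 1122 of 5764 genes. In C5-63 against C3-06, 2 of the 23 genes rose and 6 fell, beside 19.8% higher and 21.0% lower among all genes. Without C5-63 replicate 1, 0 rose and 5 fell there, beside 827 higher and 879 lower among 5817 genes. Without C3-06 replicate 1, 0 rose and 7 fell there, beside 821 higher and 912 lower among 5817 genes. In C7-143 against C5-63, 3 rose and 10 fell, beside 25.0% and 23.9%. With library totals 1 rose and 17 fell there, beside 714 higher and 2314 lower among all 5814 genes.

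Among 13 regulators of nitrogen catabolite repression and of the transporters, 8 fell and 4 rose in C7-143 against C0, beside 43.3% lower and 42.7% higher among all genes, so that 12 of 13 called is near the 86.0% of all genes. With library totals 4 fell and 5 rose, beside 2177 lower and 2684 higher among all 5814 genes. Without C7-143 replicate 3, 8 fell and 2 rose, beside 2489 lower and 2439 higher among 5817 genes. GLN3 had 62.0 CPM in BY47419, 45.9 in C0, 32.5 in C3-06, 35.6 in C5-63 and 35.2 in C7-143, and URE2 had 174, 180, 163, 144 and 140 in the same order. GLN3 was lower in C7-143 than in C0 by −0.38 ± 0.10 (adjusted p = 0.00230) and URE2 by −0.36 ± 0.06 (adjusted p = 4.27e-05), and with library totals GLN3 was not called there (−0.24, adjusted p = 0.0598). GZF3, the other GATA repressor, was higher in C7-143 than in C0, at 50.9 against 41.9 CPM (0.28 ± 0.10, adjusted p = 0.0133), a call lost without C7-143 replicate 3 (0.24, adjusted p = 0.0535). AMU1 had 646 ± 29.8 CPM in C7-143, against 168 ± 10.998 in C0 (1.94 ± 0.08, adjusted p = 1.13e-12) and against 305 ± 11.8 in C5-63 (1.08 ± 0.08, adjusted p = 6.59e-08). BUL2, an adaptor of the ubiquitin ligase that sorts Gap1, was higher in C7-143 than in C0 by 1.31 ± 0.09 (adjusted p = 3.94e-10). The largest falls of this list in C7-143 against C0 were those of LST4 and IML1. They were −0.86 ± 0.07 and −0.86 ± 0.06 (adjusted p = 1.32e-08 and 1.52e-09). In C5-63 against C0, 8 of the 13 fell and 3 rose, beside 41.8% and 41.4% of all genes. With library totals 2 fell and 5 rose there, beside 1684 lower and 3035 higher among all 5814 genes. In C3-06 against C0, 7 fell and 4 rose, beside 39.4% and 41.1%. With library totals 5 fell and 5 rose there, beside 1702 lower and 2820 higher among all 5814 genes.

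Of 13 genes for glutamate synthase and 2-oxoglutarate supply, 8 fell and 2 rose in C7-143 against C0, 11 fell and 1 rose in C5-63 against C0, and 11 fell and 0 rose in C3-06 against C0. Of all genes, 86.0%, 83.1% and 80.5% were called in these comparisons, so the numbers called are near the background, with 43.3%, 41.8% and 39.4% called lower. In C0 against BY47419, 6 of the 13 fell and 0 rose, beside 18.0% lower and 12.2% higher among all genes. Without BY47419 replicate 2, 9 fell and 0 rose, beside 1247 lower and 976 higher among 5817 genes. GLT1, glutamate synthase, was not called in C7-143 against C0, at 178 ± 10.6 and 191 ± 6.79 CPM (−0.10 ± 0.06, adjusted p = 0.142), and was lower in C5-63, at 134 ± 4.57 CPM (−0.52 ± 0.07, adjusted p = 1.59e-06). IDP2, the cytosolic isocitrate dehydrogenase, had 9.14 ± 0.905 CPM in C7-143, against 236 ± 34.8 in C0 (−4.69 ± 0.31, adjusted p = 9.88e-10). IDP1, the mitochondrial NADP-dependent isocitrate dehydrogenase, had 472 ± 15.9 CPM in C7-143, against 260 ± 3.65 in C0 (0.86 ± 0.07, adjusted p = 3.09e-09) and against 189 ± 4.83 in C5-63. The ammonium export list holds 3 genes, ADY2, ATO2 and ATO3. In C7-143 against C0, 2 of them fell and 0 rose, beside 43.3% lower and 42.7% higher among all genes. ATO2 had 34.3 ± 3.62 CPM in C7-143, against 694 ± 110 in C0 (−4.34 ± 0.27, adjusted p = 3.78e-10). All 3 were called lower in C0 than in BY47419, beside 18.0% of all genes. With only these strains in the fit, 1 of the 3 was called lower, beside 566 lower among 5764 genes. ADY2 had 51.9 ± 16.6 CPM in C0, against 403 ± 260 in BY47419 (−2.96, adjusted p = 0.000576). With only these strains in the fit its adjusted p was 0.0601.

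**Figure D4:**
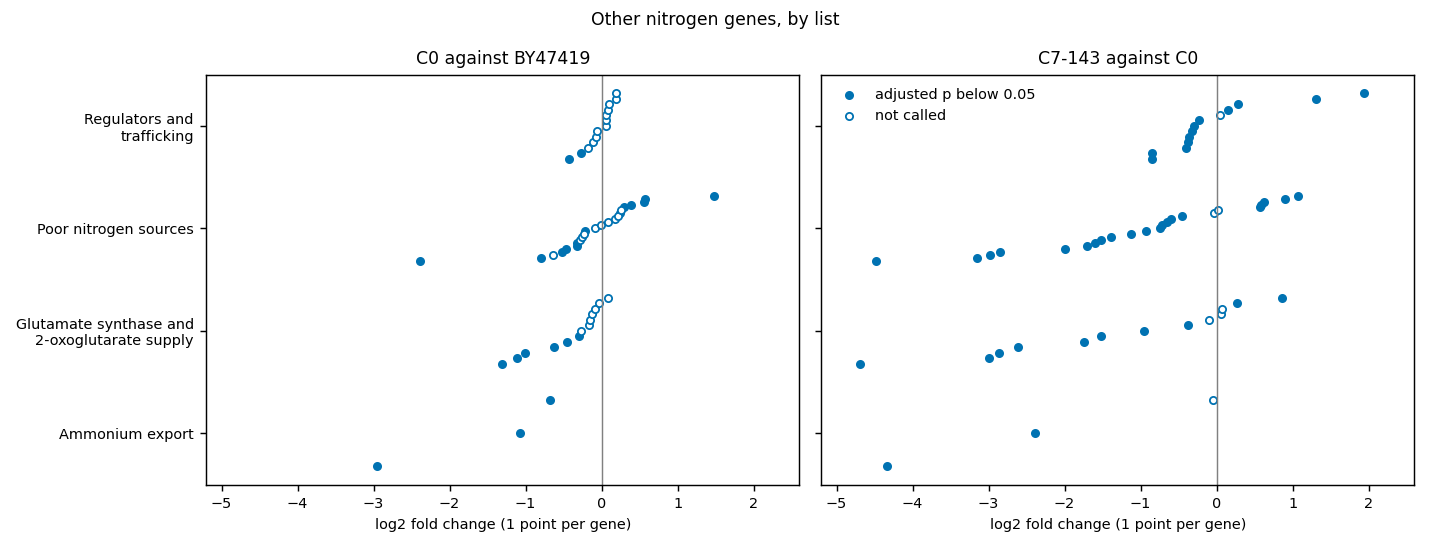
Log2 fold change of each gene (1 point per gene) of the 4 nitrogen lists in C0 against BY47419 (left) and in C7-143 against C0 (right), the first-named strain over the second. Filled points have an adjusted p below 0.05. In C7-143 against C0, PUT1 lies at −4.48, IDP2 at −4.69 and AMU1 at 1.94, and 16 of the 23 poor nitrogen genes are called lower, beside 43.3% of all genes.

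The genes whose log2 CPM was most like that of each member over the 15 libraries are given as a description: the strains fall into separate clusters, so high correlations are common. The genes most like GDH3 were CTA1 and SFC1 (Pearson r = 0.998 each), and those most like GDH2 were MLS1 and FBP1 (r = 0.996 and 0.995). MEP1 was most like PRP3 and ATG15 (r = 0.982 each), GAT1 most like LYS4 and CAN1 (r = 0.967 and 0.962), and MEP2 most like CAN1 and URC2 (r = 0.925 and 0.911). DAL80 was most like VPS36 and TTI1 (r = 0.946 and 0.931), GLN1 most like PRP2 and SPC24 (r = 0.902 each), and MEP3 most like SKS1 and GAT2 (r = 0.925 and 0.820). The lowest first-ranked values were those of GAP1, with NMA1 and LYS4 (r = 0.877 and 0.876), and of GDH1, with TMA46 and KRI1 (r = 0.843 and 0.771).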

How the data were processed

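RNA sequencing data of 15 libraries, 3 for each of 5 strains, were used. Per the submitters' processing notes the aligner HISAT2 was among the tools, in a version not named. Which program counted the reads, with which strand setting and genome build, and how it treated multiply matching reads, is not stated. The authors deposited 1 table with raw counts and FPKM for each gene in each library. The deposited counts are whole numbers and entered the tests unchanged. The deposited FPKM values served only as a check of levels: each was recomputed from the count, the gene length and 1 total per library that lay 0.0375% to 0.0541% above the column's sum. Of 5980 identifiers, 5977 are in the R64 annotation and 5972 have the same start and end there, and 99.2% of lengths are multiples of 3, so they are coding lengths. A further gene of the table, GPT2, has GAT1 as a synonym and was not taken as a member.

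Members were found by symbol. Tests used edgeR 4.0.16 in R 4.3.3, with low counts removed by filterByExpr (at least 10 reads, 15 in total), TMM scaling and a robust quasi-likelihood fit of all 15 libraries with strain as the factor, two-sided, adjusted over 5814 genes. The SE of a log2 fold change is its size over the square root of F. Total counts of 16144808 to 21586409 per library limit a gene with 0 reads to 3 counts of that total, for counting error only. Alternatives were DESeq2 1.42.0, limma-voom (limma 3.58.1), RLE scaling, library totals, no filter, at least 5 CPM in 3 libraries, only the 2 strains compared, a replicate block, a threshold of 0.01 for the adjusted p, and each library left out in turn. The alternatives for the 4 lists were added after seeing the data.

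The members, lists and tests were chosen with earlier results of these data known. Besides the members, the rule names GLN3, URE2, GZF3 and GLT1. Per list and comparison it adds up to 2 called genes with the largest rise and 2 with the largest fall without overlap. Only some of the genes so named are given. Same-numbered libraries deviated together in C0 against BY47419 alone (correlations 0.116 to 0.321, limit 0.1, other pairs −0.268 to 0.132), and the labels name no shared batch. The fit was also tested on simulated data of 5810 genes, with 200 genes changed in C0 against BY47419. It recovered 86.6% of 67 genes changed 1.5-fold, 97.0% of 67 changed 2-fold and 100% of 66 changed 4-fold, and 8 of 197 calls were false. The simulated libraries were drawn independently, with no outlying library and no shared deviation, and 1761 genes were called in the real comparison. These rates therefore need not hold for the real data. Upstream windows and sequences were read from the R64 genome with Python 3.11.15.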

Additional observations from a re-analysis of the deposited data

How the results depend on the processing

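For the fold changes of the 10 genes, 457 values under other settings and 326 with a library left out kept their direction and side of the threshold. Another 4 and 11 reversed, none of these 15 called under the reversing setting, and 6 and 17 lost a call, while 13 and 6 gained one. With library totals as the scale, MEP1 and GDH1 in C0 against BY47419 came to 0.0791 and 0.0537, MEP2 in C5-63 against C3-06 to 0.0144 and GDH1 in C7-143 against C5-63 to −0.0930. With a library left out, C0 against BY47419 ranged from −0.183 to 0.0098 for MEP1 and from −0.314 to 0.0763 for GDH1. MEP3 ranged from −0.0378 to 0.210 in C3-06 against C0 and from −0.0815 to 0.166 in C7-143 against C0, where it was also −0.0285 without C7-143 replicate 3. C5-63 against C3-06 ranged from −0.176 to 0.209 for GAP1 (−0.101 without C3-06 replicate 1), from −0.0529 to 0.167 for GLN1, from −0.396 to 0.0457 for GDH1 and from −0.0048 to 0.133 for MEP3. GDH1 in C7-143 against C5-63 ranged from −0.0236 to 0.228.

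With only the 2 strains in the fit, 2 of the 10 genes were called in C0 against BY47419 (4 in the fit of all libraries) and 8 in C7-143 against C5-63 (4). Of all genes, 1122 of 5764 and 3144 of 5788 were called in these fits. At an adjusted p below 0.01, 1 of the 10 was called in C5-63 against C3-06 (2) and 2 in C7-143 against C5-63, beside 1504 and 1959 of all 5814 genes. Library totals left 1 of the 10 in C5-63 against C3-06, beside 2307 of all 5814 genes. With a library left out, the members called numbered 3 to 6 in C0 against BY47419, 7 in C3-06 against C0, 7 to 8 in C5-63 against C0, 8 in C7-143 against C0, 1 to 2 in C5-63 against C3-06 and 2 to 4 in C7-143 against C5-63. The calls over all genes were then 945 to 2223, 4486 to 4638, 4658 to 4716, 4869 to 4928, 1706 to 2380 and 2250 to 2649 in the same order. Of all genes, 813 were called in C0 against BY47419 below 0.01 and 1122 with only these strains (1761), and 1504 below 0.01 in C5-63 against C3-06 (2372). With a library left out, C0 against BY47419 ranged from 945 to 2223 genes: 945 without BY47419 replicate 1, 1014 without BY47419 replicate 3 and 1027 without C0 replicate 2.

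Library totals moved the median of all genes from near 0 to 0.13 in C0 against BY47419, 0.22, 0.30 and 0.12 in C3-06, C5-63 and C7-143 against C0, and −0.18 in C7-143 against C5-63. The genes called higher and lower then numbered 1279 and 318 in C0 against BY47419 (712 and 1049 with TMM), 2820 and 1702 in C3-06 against C0 (2387 and 2292), 3035 and 1684 in C5-63 against C0 (2405 and 2428), 1546 and 761 in C5-63 against C3-06 (1151 and 1221) and 714 and 2314 in C7-143 against C5-63 (1451 and 1387). The cause of these changes was not tested. The replicate block changed no call among the 10 genes, with 4, 7, 8, 8, 2 and 4 called in the 6 comparisons, and gave 1782 calls over all genes in C0 against BY47419. Of 50 strain levels, 16 moved by over 1 SD between CPM per kilobase and FPKM. DAL80, with 50 reads in its lowest library, is the member whose precision depth limits most.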
